A study of Homo sapiens with 6 samples.

Results

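The 39 genes of nucleotide excision, base excision and mismatch repair were described in cells transfected with a miR-27a-3p mimic and in cells transfected with a negative control. They were matched by gene name, and all 39 were found among the 58174 genes of the deposited table. Of them 17 belong to nucleotide excision repair, 17 to base excision repair and 5 to mismatch repair. The series concerns miR-27a-3p and the response of hepatocellular carcinoma to cisplatin, and its labels name no cisplatin treatment. There were 3 samples of each group, and the labels name the cells as Huh-7, a long-established human liver cancer line. RNA was taken 48 h after transfection with Lipofectamine 3000. Mimics are synthetic RNAs that imitate the mature microRNA, and the labels do not give the sequence of the control RNA or the doses. Separate cultures are not named for the replicates, and p-values therefore cover no more than the variation among these samples, possibly technical.

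These 3 routes remove damage from a single strand of DNA and fill the gap from the intact strand. Nucleotide excision repair cuts out a short stretch around bulky lesions, such as those left by ultraviolet light and the intrastrand adducts of cisplatin. Base excision repair removes a single altered base with a glycosylase, cuts the sugar backbone and replaces the base. Mismatch repair corrects wrongly paired or slipped bases after replication, and its proteins also bind some cisplatin adducts.

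Levels are FPKM, fragments counted per length of gene and per sequencing depth, so they compare genes per length and are relative to the rest of the library. FPKM times gene length piled up at a shared value in each sample, and if that value is 1 fragment depth was 17000000 to 21100000 fragments in controls and 25100000 to 31000000 in mimic samples. Mitochondrial genes took 14.6% to 38.9% of summed FPKM, and the share was highest in sample 3 of both groups. Of 14 liver markers none reached a mean of 1 FPKM and 11 stayed under 0.1 FPKM in every sample. Albumin (ALB) was at or under 0.0110 FPKM and alpha-fetoprotein (AFP) at or under 0.0237, so defining markers of a liver line were absent. Summed markers were 17.1 to 17.9 FPKM in controls and 6.87 to 9.65 in mimic samples for fibroblasts, nearly all from COL1A1, and 8.67 to 10.6 and 11.3 to 19.4 for leukocytes, mostly from CD68. They were 1.42 to 2.94 and 0.535 to 0.854 for endothelium, and 429.5 to 502.3 and 265.6 to 440.0 for squamous epithelium, nearly all from KRT17. PTPRC, CD3E and KRT5 stayed under 0.03 FPKM, and the part of these markers in the results was not tested. All 39 repair genes passed the filter of a mean of at least 1 FPKM.

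The mature miR-27a-3p is shown because its seed defines the sites searched in the repair genes. It is encoded at chr19:13836447-13836467 on the minus strand (RefSeq, GRCh38.p14), and the capitals mark the seed, bases 2 to 8.
hsa-miR-27a-3p: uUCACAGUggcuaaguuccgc

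The complement of this seed was searched in the longest 3' UTR of a protein-coding transcript of each gene in GENCODE 29. The words were ACTGTGAA (8mer), ACTGTGA (7mer-m8) and CTGTGAA (7mer-A1), each gene was counted once under its longest match, and only the transcript strand was read. Of the 39 repair genes 7 held a match, or 17.9%, against 28.9% of the 11465 tested genes with a searched 3' UTR. The 8mer was in 1 repair gene, or 2.56%, against 6.55%. Shorter matches, other 3' UTRs and other parts of the transcripts were not searched. All 7 sites are shown 5' to 3' with the match in capitals, because they are places where the mimic could pair by its seed.
GTF2H5, 8mer, chr6:158192186-158192215, plus strand: tataagcagcaACTGTGAAagacttgccac
APEX1, 7mer-m8, chr14:20457491-20457519, plus strand: ctatacctagcACTGTGAcaccaccccta
DDB1, 7mer-A1, chr11:61299667-61299695, minus strand: ggtttcattgtCTGTGAAgtgagaccttc
ERCC8, 7mer-A1, chr5:60873933-60873961, minus strand: gaactctttttCTGTGAAactcattaagg
MLH3, 7mer-A1, chr14:75013810-75013838, minus strand: aagaagggagtCTGTGAAaacaaaatgct
NEIL1, 7mer-A1, chr15:75357070-75357098, plus strand: agtttccttatCTGTGAAacgggaataaa
NTHL1, 7mer-A1, chr16:2039865-2039893, minus strand: gtggccaccgtCTGTGAAgtggctttacg

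The sites in GTF2H5, NTHL1, DDB1 and ERCC8 lie in every protein-coding transcript of their gene with an annotated 3' UTR, 2 of 2 in GTF2H5 and NTHL1 and 1 of 1 in DDB1 and ERCC8. The site lies in 2 of 5 such transcripts in MLH3, 1 of 3 in NEIL1 and 1 of 4 in APEX1. Genes with a site were on both sides of the comparison, since DDB1 and NTHL1 were called higher and NEIL1 and ERCC8 lower. GTF2H5, MLH3 and APEX1 were not called, with log2 fold changes of -0.33, -0.56 and 0.71. The 7 genes had a median log2 fold change of -0.33 and the 32 without a site one of -0.15, while the medians over all searched genes were -0.27 and -0.13. A match is a description of letters in the annotated transcript, and binding was not measured.

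Of the 39 repair genes 6 rose and 10 fell in mimic samples by limma at an adjusted p of 0.05, with p-values adjusted over all 14439 tested genes. The risers were DDB1, RAD23B and GTF2H1 of nucleotide excision repair and NTHL1, PARP1 and MPG of base excision repair. The genes that fell were DDB2, ERCC1, ERCC4 and ERCC8 of nucleotide excision repair, NEIL1, NEIL3, MBD4 and MUTYH of base excision repair, and MSH6 and PMS1 of mismatch repair. Higher genes made up 15.4% of the set, against 12.0% of all tested genes and 14.0% of the protein-coding ones, and lower genes 25.6%, against 39.6% and 32.7%. These shares lie near or below the background, so the counts alone say nothing particular of repair genes. The groups did not overlap in 23 of the 39 genes, or 59.0%, against 60.5% of all tested genes and 56.9% of the protein-coding ones. Among all 39 genes, 8 lay apart and were higher, where this held for 16.2% of all tested genes and 19.0% of the protein-coding ones. Another 15 lay apart and were lower, where the shares were 44.3% and 37.9%. The changes were small. NEIL1 was the only repair gene called with a change of at least 2-fold, 2.56% of the set against 20.9% of all tested genes and 14.7% of the protein-coding ones.

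The deposited scale carries a shift, which bears on each direction given here. The median log2 fold change was -0.29 over all tested genes, -0.17 over the protein-coding ones and -0.15 over the 39 repair genes, all protein-coding. After median-of-ratios scaling, which lines up the samples on their typical gene, the medians were 0.01, 0.13 and 0.16. The repair genes thus lay near the protein-coding median on both scales. On that scale 12 repair genes were higher and 4 lower, or 30.8% and 10.3%, against 26.9% and 27.4% of all tested genes and 31.8% and 20.4% of the protein-coding ones. Quantile normalization called 10 higher and 6 lower, where the background was 24.9% and 22.8% of all tested genes and 27.9% and 19.2% of the protein-coding ones. All 6 genes that rose on the deposited scale rose after median-of-ratios scaling too. Of the 10 that fell, NEIL1, NEIL3, MSH6 and PMS1 did so on both scales. By route, called genes made up 17.6% higher and 23.5% lower in nucleotide excision and in base excision repair alike, against 12.0% and 39.6% of all tested genes. Counts by role rest on 2 to 6 genes each and stand against the same background. By route the medians were -0.29 for nucleotide excision, -0.06 for base excision and -0.56 for mismatch repair on the deposited scale, and 0.03, 0.25 and -0.26 after scaling. Log2 fold changes below are on the log2(FPKM + 0.5) scale with their standard error (SE), a scale that makes changes at low levels look smaller than they are. In bulk RNA, fewer cells with a transcript and less of it per cell cannot be told apart.

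**Figure D1:**
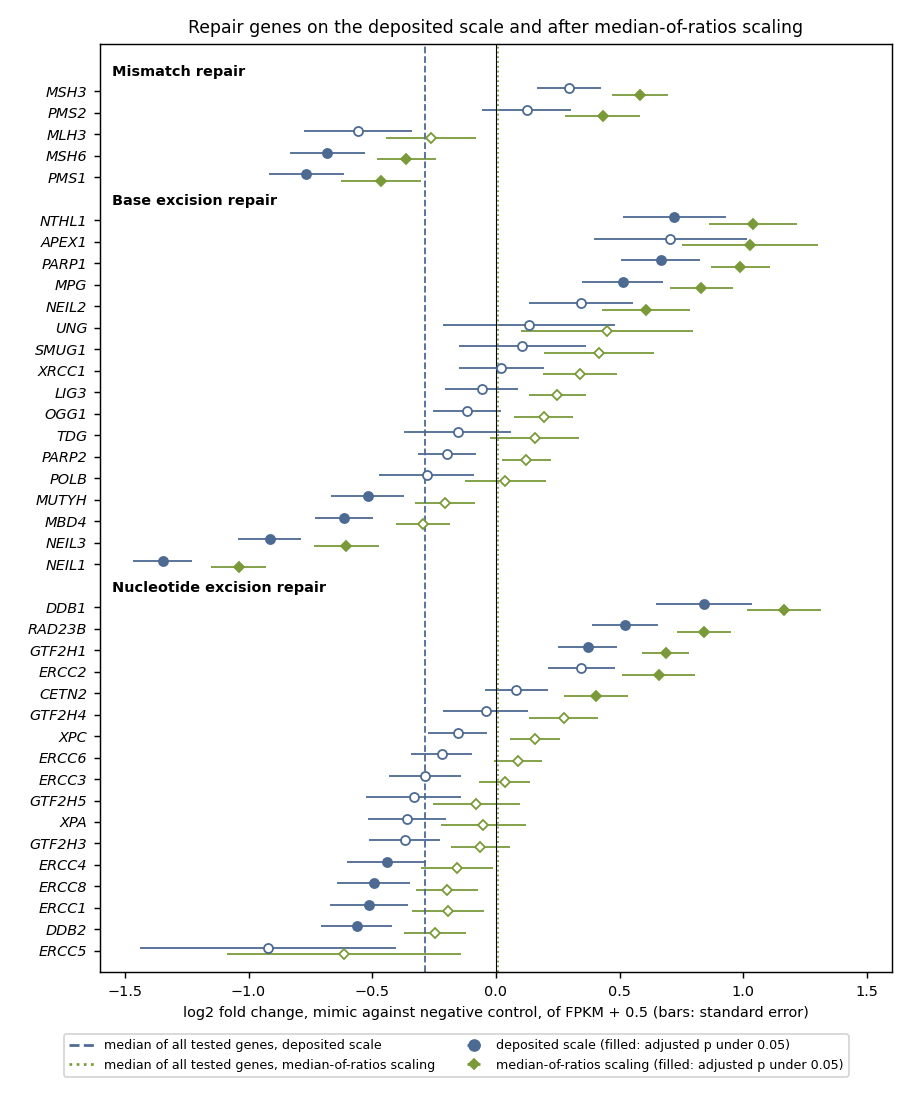
Log2 fold change of the 39 repair genes, mimic against negative control, with standard errors, on the deposited scale (circles) and after median-of-ratios scaling (diamonds), ordered within each route. Filled symbols have an adjusted p under 0.05, and vertical lines are the medians of all tested genes (-0.29 and 0.01). Medians of the protein-coding genes (-0.17 and 0.13) are not drawn. DDB1 and NTHL1 lie farthest to the right on the deposited scale and NEIL1 (-1.35) farthest to the left.

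Values per sample are given in the order of samples 1, 2 and 3. In controls the most abundant repair transcripts per length were PARP1, at 53.7 ± 6.45 FPKM (SD, n = 3), ERCC1 at 41.1 ± 5.48 and DDB1 at 40.3 ± 8.18, and the last pair did not differ beyond their spread. The least abundant were NEIL2 at 1.99 ± 0.408, GTF2H5 at 2.15 ± 0.165 and MSH3 at 3.38 ± 0.118. In mimic samples PARP1 (85.7 ± 12.7), DDB1 (72.3 ± 12) and APEX1 (60.1 ± 25.4) led, and their spreads overlap.

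**Figure D2:**
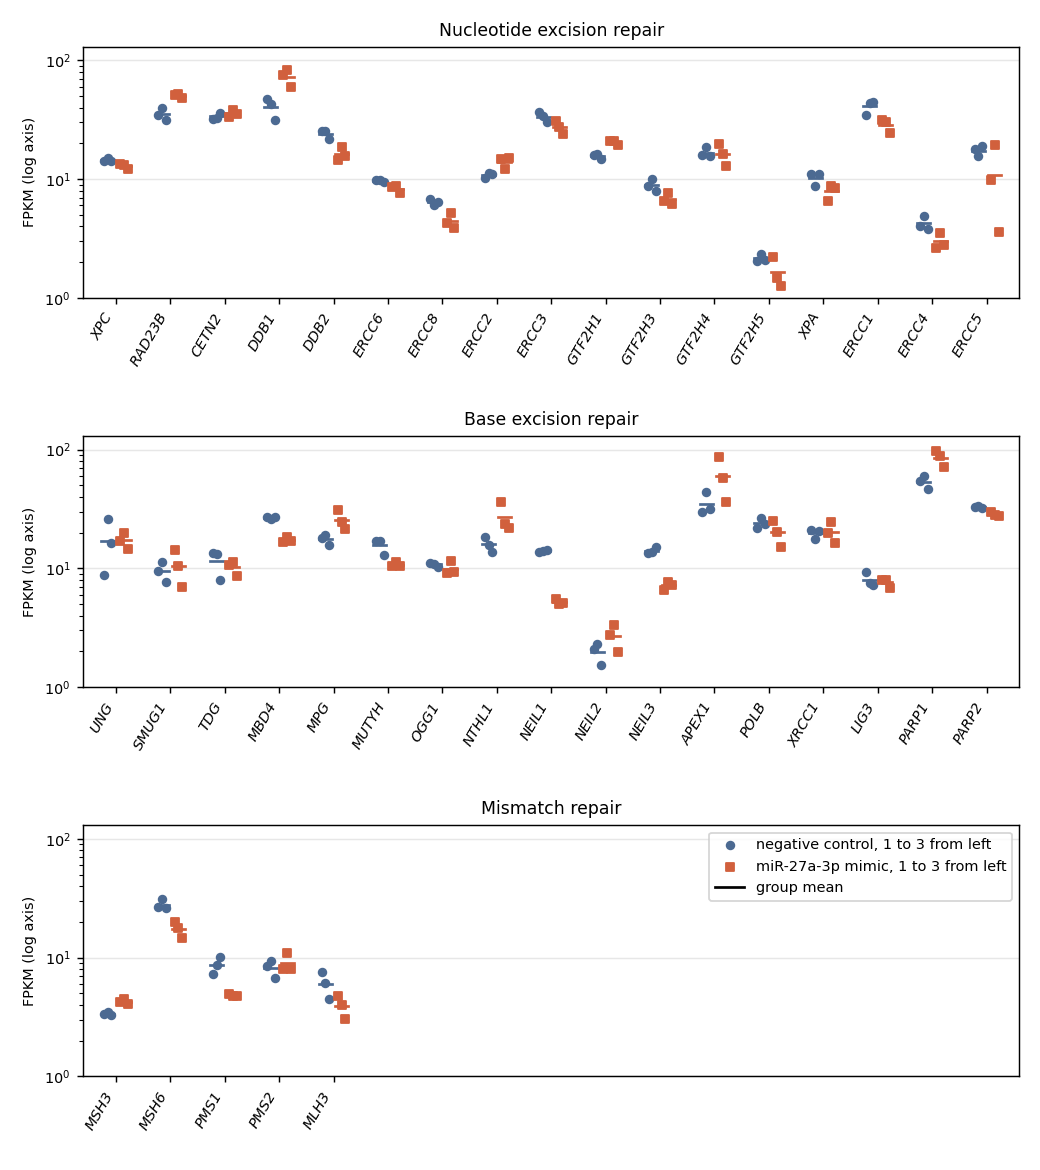
FPKM of each repair gene in the 3 control samples (circles) and the 3 mimic samples (squares), on a log axis, with a line at each group mean. NEIL1, NEIL3 and MBD4 show tight groups that lie apart, while ERCC5 (3.58 to 19.3 FPKM among mimic samples), UNG and APEX1 spread widely within a group.

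Nucleotide excision repair starts either at lesions anywhere in the genome or at a stalled RNA polymerase. Of the 5 genes of global damage recognition 2 rose and 1 fell. DDB1, the adaptor of the CUL4 ubiquitin ligase that carries the lesion sensor DDB2, was at 46.9, 42.9 and 31.2 FPKM in controls and 75.0, 82.7 and 59.2 in mimic samples (log2 fold change 0.84, SE 0.20, adjusted p = 0.00743). DDB2 itself, which binds ultraviolet lesions, went the other way, from 25.3, 25.5 and 21.7 to 14.5, 18.6 and 15.6 (-0.56, SE 0.14, adjusted p = 0.0116). Neither gene's groups overlap, but the call of DDB2 is lost after median-of-ratios scaling (-0.25, adjusted p = 0.132).

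RAD23B, which stabilises the lesion sensor XPC, was at 34.3, 39.4 and 31.3 in controls against 50.7, 51.7 and 48.3 in mimic samples (0.52, SE 0.13, adjusted p = 0.0116). XPC was at 14.1, 15 and 14.3 against 13.4, 13.2 and 12.2, with groups that do not overlap, and was not called (-0.15, SE 0.12, adjusted p = 0.309). CETN2, the centrin that completes this complex, was at 32.0, 33.0 and 36.1 and at 33.2, 38.5 and 35.6 (0.08, adjusted p = 0.61), and was called higher once scaled by median of ratios (0.40, adjusted p = 0.0317). Of these 3 subunits RAD23B was thus the one called on the deposited scale.

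The pair of genes for recognition at stalled polymerases both had lower means. ERCC8 (CSA), a subunit of a CUL4 ligase, fell from 6.77, 6.07 and 6.43 to 4.28, 5.20 and 3.85 (-0.49, SE 0.15, adjusted p = 0.0218). Its call was lost without control sample 1 (adjusted p = 0.0786), control sample 3 (0.0543) or mimic sample 3 (0.0597), after median-of-ratios scaling (-0.20, 0.211), after quantile normalization (-0.08, 0.61) and after length and GC correction (-0.14, 0.325). ERCC6 (CSB), the remodelling ATPase at the stalled polymerase, was at 9.82, 9.84 and 9.49 and at 8.53, 8.70 and 7.62 (-0.22, adjusted p = 0.164). Its groups do not overlap either, and after correction for gene length and GC content it was called higher (0.45, adjusted p = 0.0105).

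TFIIH, which opens the DNA around the lesion and also serves transcription, contributes 6 genes, of which 1 rose and none fell. GTF2H1 (p62), a core subunit that contacts other repair factors, went from 15.9, 16.2 and 14.8 to 21.0, 20.9 and 19.3 (0.37, SE 0.12, adjusted p = 0.0313), and adjusted p was 0.0594 to 0.0924 when any sample but mimic sample 3 was left out. The helicase gene ERCC2 (XPD) was at 10.3, 11.2 and 11.1 and at 14.8, 12.2 and 15.1 (0.35, adjusted p = 0.0614), with groups that do not overlap. It was called without mimic sample 2 (adjusted p = 0.0349) and after median-of-ratios scaling (0.66, adjusted p = 0.00789). The other helicase gene, ERCC3 (XPB), had a lower mean, with 36.7, 33.7 and 30.2 against 30.8, 27.6 and 24.0 (-0.29, adjusted p = 0.132).

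The remaining TFIIH genes encode non-catalytic subunits. GTF2H3 (p34) was at 8.92 ± 1.05 and 6.79 ± 0.760 (adjusted p = 0.0618), and GTF2H4 (p52) at 16, 18.5 and 15.6 against 19.8, 16.4 and 13 (adjusted p = 0.855). GTF2H5 (p8), the holder of the 8mer site shown above, was at 2.04, 2.34 and 2.08 in controls against 2.20, 1.46 and 1.26 in mimic samples (-0.33, SE 0.19, adjusted p = 0.178). Mimic sample 1 lies among the controls, and without it GTF2H5 was called lower (-0.51, adjusted p = 0.0386).

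Of the 4 genes for lesion verification and incision 2 fell and none rose, where 39.6% of all tested genes fell. ERCC1 and ERCC4 (XPF) encode the nuclease that cuts on the 5' side of the lesion and also acts in repair of interstrand crosslinks. ERCC1 was at 34.8, 43.8 and 44.7 in controls against 31.3, 29.98 and 24.7 in mimic samples (-0.51, SE 0.16, adjusted p = 0.0241). ERCC4 was at 4.03, 4.85 and 3.83 and at 2.65, 3.52 and 2.81 (-0.44, SE 0.16, adjusted p = 0.0468). Both calls are fragile. That of ERCC1 was lost without control sample 2 (adjusted p = 0.083) or 3 (0.0753) or mimic sample 2 (0.0512) or 3 (0.0673), after median-of-ratios scaling (-0.19, 0.292) and after length and GC correction (-0.41, 0.0517). That of ERCC4 was lost without any sample but mimic sample 2 (0.0594 to 0.164) and after median-of-ratios scaling (-0.16, 0.389), and its direction turned after quantile normalization (0.11, adjusted p = 0.577) and after length and GC correction (0.11, 0.52). XPA, the scaffold that checks the lesion, was at 11, 8.79 and 11 and at 6.56, 8.75 and 8.36 (-0.36, adjusted p = 0.0908), with control sample 2 just above mimic sample 2.

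ERCC5 (XPG), the nuclease of the 3' side, had the widest spread of the route. It was at 17.9, 15.5 and 18.8 FPKM in controls and 9.84, 19.3 and 3.58 in mimic samples (-0.92, SE 0.52, adjusted p = 0.179), and without mimic sample 2 it was called lower (-1.46, adjusted p = 0.0192). The readthrough gene BIVM-ERCC5, which joins the upstream gene BIVM to ERCC5, lies on the same strand and shares 5213 of the 8242 exon bases of ERCC5, or 63.2%. It was at 13.4, 11.9 and 8.99 in controls against 8.36, 3.11 and 13.8 in mimic samples. In mimic samples it was thus highest where ERCC5 was lowest and lowest where ERCC5 was highest. ERCC5 held 57.1%, 56.6% and 67.7% of the summed FPKM of both genes in controls and 54.1%, 86.2% and 20.6% in mimic samples. The sum, chosen after the values were seen, was 31.3, 27.4 and 27.8 in controls against 18.2, 22.4 and 17.4 in mimic samples. Its groups do not overlap (log2 difference -0.58, 2-sided exact permutation p = 0.1, the smallest that 3 against 3 samples allow). How reads were assigned between these genes was not tested.

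**Figure D3:**
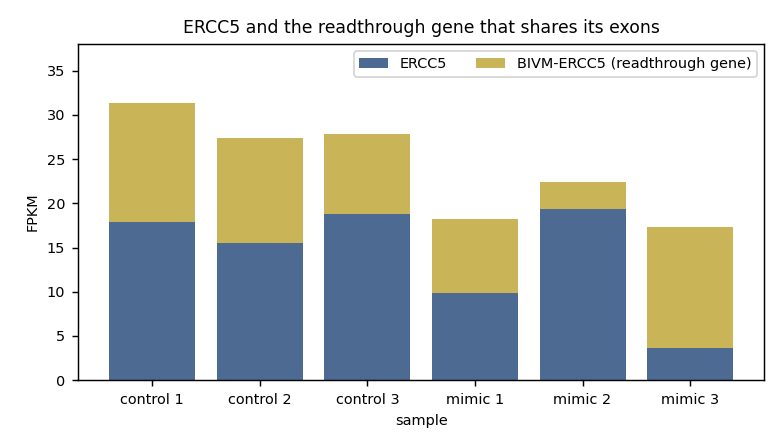
FPKM of ERCC5 and of the readthrough gene BIVM-ERCC5 in each sample, stacked from 0. The split between them varies most among mimic samples, while the sum stays at 27.4 FPKM or more in controls and 22.4 or less in mimic samples.

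Base excision repair begins with glycosylases, of which 6 act as simple hydrolases and 5 also cut the DNA strand. Of the 6, 1 rose and 2 fell. MBD4, which removes thymine or uracil opposite guanine at methylated CpG sites, was at 27.1, 26.2 and 26.9 in controls against 16.5, 18.4 and 17.1 in mimic samples (-0.61, SE 0.12, adjusted p = 0.00314). Its groups are tight and far apart, and leaving out any sample kept the call, but after median-of-ratios scaling adjusted p was 0.0527 (-0.30). MUTYH, which removes adenine opposite 8-oxoguanine, fell from 17, 17 and 13 to 10.4, 11.3 and 10.5 (-0.52, SE 0.15, adjusted p = 0.0177). Its call was lost without control sample 1 (0.0733) or 2 (0.0706), after median-of-ratios scaling (-0.21, 0.185) and after quantile normalization (-0.30, 0.0739).

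MPG, the glycosylase for alkylated purines, rose from 17.9, 19.3 and 15.9 to 30.8, 24.6 and 21.4 (0.51, SE 0.16, adjusted p = 0.0291). The call was lost when control sample 1 (adjusted p = 0.0706), control sample 3 (0.0898), mimic sample 1 (0.0659) or mimic sample 2 (0.066) was left out, and with no filter on low values (0.0592). The remaining 3 act on uracil or thymine and were not called. UNG, the main uracil glycosylase, was at 8.77, 25.8 and 16.5 in controls against 17.1, 20.0 and 14.7 in mimic samples, so the controls span the mimic samples (adjusted p = 0.771). SMUG1 was at 9.45, 11.4 and 7.66 and at 14.3, 10.5 and 6.91 (adjusted p = 0.753), and TDG at 13.6, 13.3 and 8.01 and at 10.6, 11.4 and 8.59 (adjusted p = 0.577).

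The largest falls that passed the test were in NEIL1 and NEIL3, glycosylases for oxidised pyrimidines that cut the strand as well. NEIL1 on chromosome 15 (75346955 to 75357114, hg38) was at 13.8, 14.0 and 14.4 FPKM in controls and 5.54, 5.06 and 5.08 in mimic samples (-1.35, SE 0.12, adjusted p = 8.97e-05). NEIL3 on chromosome 4 (177309836 to 177362943), which is known for expression in dividing cells and for unhooking some crosslinks, was at 13.4, 13.6 and 15 and at 6.63, 7.71 and 7.28 (-0.91, SE 0.13, adjusted p = 0.000611). Each sample lay within 1 FPKM of its group mean in NEIL1, the groups of both genes are far apart, and both kept their call in all 18 other settings. No setting removed reads that NEIL1 may share with its neighbour MAN2C1, described below, and their part in its fall was not tested. After median-of-ratios scaling the log2 fold changes of NEIL1 and NEIL3 were -1.04 and -0.60.

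Their relative NEIL2 was low at 2.11, 2.33 and 1.54 in controls against 2.76, 3.33 and 1.96 in mimic samples and was not called (0.34, SE 0.21, adjusted p = 0.205), though median-of-ratios scaling made it a gene called higher (0.61, adjusted p = 0.0231). NTHL1, which handles many of the same oxidised pyrimidines, rose from 18.3, 15.8 and 13.8 to 36.1, 23.4 and 22 (0.72, SE 0.21, adjusted p = 0.0191). Adjusted p was 0.0625 without control sample 3 and 0.0508 with no filter on low values. OGG1, the glycosylase for 8-oxoguanine, was at 11, 11 and 10.4 and at 9.11, 11.5 and 9.25 (-0.12, adjusted p = 0.496). The 5 strand-cutting glycosylases thus held 2 that fell, 1 that rose and 2 that were not called.

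None of the 4 genes for incision at abasic sites, gap filling and ligation was called. APEX1, the main abasic site endonuclease, was at 29.5, 43.6 and 31.9 in controls against 86.9, 57.2 and 36.3 in mimic samples (0.71, SE 0.31, adjusted p = 0.0908). Mimic sample 3 lies among the controls, and without it APEX1 was called higher (1.02, adjusted p = 0.0129). Mimic sample 3 also had the highest share of mitochondrial genes. With those genes left out of the total APEX1 was called higher over all samples (0.77, adjusted p = 0.0221). The part of that share in the APEX1 values was not tested. POLB, the gap-filling polymerase, was at 22, 26.6 and 23.5 and at 25, 20.3 and 15 (-0.28, adjusted p = 0.254).

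XRCC1, the scaffold of single-strand break repair, was at 21.2, 17.6 and 20.7 and at 19.9, 24.8 and 16.4 (0.02, SE 0.17, adjusted p = 0.925), and its ligase partner LIG3 at 8.0 ± 1.15 and 7.64 ± 0.681 (adjusted p = 0.767). Their groups overlap.

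PARP1, the sensor of strand breaks that builds poly(ADP-ribose), rose from 54.9, 59.5 and 46.7 to 97, 88.1 and 71.9 (0.67, SE 0.16, adjusted p = 0.00917) and was called higher in all 18 other settings. It lies on chromosome 1 from 226360691 to 226408079. PARP2, a related polymerase that acts beside it, was at 32.9, 33.3 and 32.3 and at 29.9, 28.3 and 27.5, apart in its groups but not called (-0.20, SE 0.12, adjusted p = 0.189).

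Mismatch repair held 2 genes that fell and none that rose among 5, a share of 40.0% lower against 39.6% of all tested genes. MSH6 and MSH3 encode alternative partners in the MutS complexes, MSH6 for single mismatches and MSH3 for larger loops. MSH6 was at 26.6, 31.1 and 26.3 in controls against 19.8, 17.7 and 14.6 in mimic samples (-0.68, SE 0.15, adjusted p = 0.00642). It kept its call without any sample and lost it after length and GC correction (-0.12, adjusted p = 0.519). MSH3 was at 3.33, 3.52 and 3.30 and at 4.24, 4.51 and 4.04, with groups that do not overlap (0.30, SE 0.13, adjusted p = 0.0886). It was called higher in 4 other settings, with 0.58 (adjusted p = 0.00421) under median-of-ratios scaling, 0.82 (0.00127) under quantile normalization, and 0.67 under length and GC correction without (0.00189) and with the replicate block (0.00701).

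The MutL subunits act after the mismatch is bound. PMS1, whose role in correction is minor, fell from 7.24, 8.58 and 10.1 to 4.98, 4.77 and 4.75 (-0.77, SE 0.15, adjusted p = 0.00334). Its call was lost after quantile normalization (-0.40, adjusted p = 0.0918) and length and GC correction (-0.30, 0.145). PMS2, the endonuclease subunit, was at 8.43, 9.37 and 6.73 and at 8.01, 11 and 7.95 (0.12, adjusted p = 0.588), and it has near-identical pseudogene copies, so its assignment of reads is uncertain. MLH3, which takes part in repair of loops and in meiotic recombination, was at 7.58, 6.09 and 4.46 and at 4.72, 3.98 and 3.05 (-0.56, SE 0.22, adjusted p = 0.0614). Mimic sample 1 lies above control sample 3, and MLH3 was called lower without either (adjusted p = 0.0363 and 0.0235).

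Partners were then compared within each sample, since a ratio of FPKM does not change when a whole sample is scaled by 1 factor. Quantile normalization and the length and GC correction can change such ratios, which are given here on the deposited scale only. The 6 pairs were chosen with the single values known, so the ratios are partly fixed by them. In the 4 pairs that lie apart below, both genes already lay apart in opposite directions. The separation of those ratios and its p were thus fixed in advance and are no further support. DDB1 over DDB2 was 1.86, 1.68 and 1.43 in controls against 5.18, 4.44 and 3.79 in mimic samples, and RAD23B over XPC was 2.44, 2.64 and 2.19 and 3.77, 3.91 and 3.97. PARP1 over PARP2 was 1.67, 1.79 and 1.45 and 3.25, 3.11 and 2.62. MSH6 over MSH3 went the other way, from 7.99, 8.83 and 7.97 to 4.66, 3.92 and 3.6. In these 4 pairs the groups do not overlap, with log2 differences of 1.43, 0.69, 0.87 and -1.03, and each reached the smallest p the design allows (2-sided exact permutation p = 0.1; 0.15 after Benjamini-Hochberg adjustment over 6 pairs).

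The nuclease pair and the ligase pair had overlapping groups. ERCC1 over ERCC4 was 8.64, 9.04 and 11.7 in controls against 11.8, 8.53 and 8.79 in mimic samples (log2 difference -0.02, exact permutation p = 0.8). XRCC1 over LIG3 was 2.28, 2.34 and 2.88 and 2.48, 3.09 and 2.39 (0.08, exact permutation p = 0.5). An overlap with 3 samples a group does not show that the ratios are equal.

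**Figure D4:**
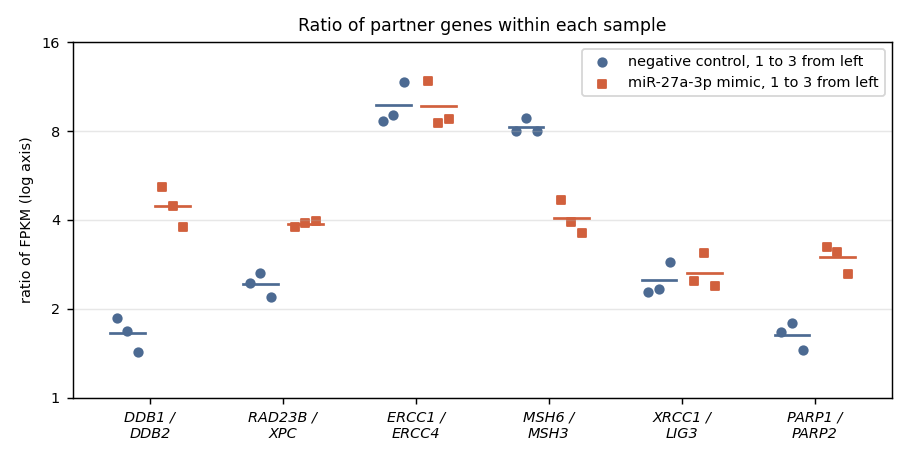
Ratio of FPKM of 6 pairs of partner genes within each sample, on a log axis, for controls (circles) and mimic samples (squares), with lines at the group means. DDB1 over DDB2 lies at 1.43 to 1.86 in controls and 3.79 to 5.18 in mimic samples, and ERCC1 over ERCC4 overlaps between the groups.

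Many repair genes share exon bases with a neighbour, and the sources used here do not give the strand setting of the counting, so their reads may mix. By GENCODE 29 exons, 14 of the 39 shared at least 10% of their exon bases with 1 other gene. NEIL1 shared 26.4% with MAN2C1, a mannosidase gene on the opposite strand, which was at 39.6, 35.8 and 37.6 FPKM in controls and 19.7, 17.4 and 14.9 in mimic samples (-1.11). MSH6 shared 16.2% with FBXO11, a ubiquitin ligase subunit gene on the opposite strand, at 25.6, 23.4 and 28.2 and at 14.5, 16.8 and 14.8 (-0.73). MPG shared 27.3% with NPRL3, an opposite-strand inhibitor of mTORC1 signalling, at 21.1, 20.2 and 17.6 and at 29.8, 29.8 and 28.7 (0.58). ERCC8 shared 28.3% with the pseudogene GNL3LP1 on the same strand, which fell from 2.1, 1.61 and 1.55 to 0.852, 0.803 and 0.423 (-0.93). In these 4 the neighbour moved the same way as the repair gene and was called (adjusted p = 0.00042, 0.00244, 0.00575 and 0.00565).

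Other pairs differed in direction or in call, or held no called gene. ERCC1 shared 28.6% with CD3EAP, an RNA polymerase I subunit gene, which rose from 1.99, 2.76 and 2.46 to 4.75, 8.77 and 8.08 (1.37) while ERCC1 fell. The span of ERCC1 also holds FOSB, a transcription factor gene with no shared exon base, at 74.6, 90.9 and 97 in controls against 0.370, 0.519 and 0.467 in mimic samples. XPC shared 23.8% with the antisense gene AC093495.1, which fell (-1.40), while XPC was not called (-0.15). NTHL1 shared 16.5% with TSC2, at 35.0, 28.5 and 28.5 and at 29, 31.8 and 37.5, which was not called (0.09), and MUTYH shared 14.1% with TOE1, also not called (-0.15). GTF2H4 shared 79.0% with VARS2 on the same strand, and neither was called (-0.04 and -0.01). Among the 25 repair genes without such sharing 4 rose and 4 fell, the latter being DDB2, MBD4, NEIL3 and PMS1. Over all tested genes, whether they share exon bases or not, 12.0% rose and 39.6% fell.

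**Figure D5:**
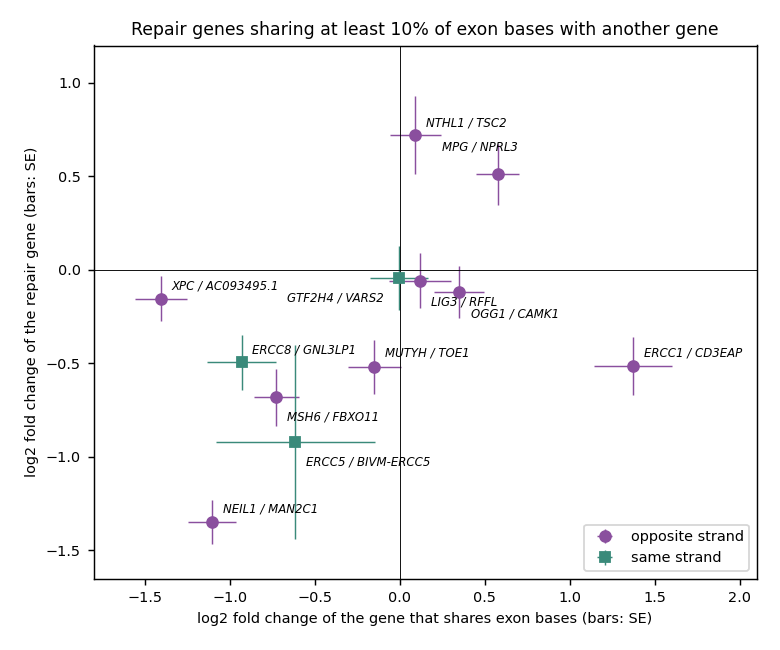
Log2 fold change of repair genes that share at least 10% of their exon bases with another tested gene, against that of the neighbour, with standard errors, for neighbours on the opposite strand (circles) and the same strand (squares). NEIL1 and MAN2C1 lie together at the lower left, and ERCC1 (-0.51) lies opposite CD3EAP (1.37).

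Genes that work beside the listed ones were read from lists, and each gene said to rise or fall has an adjusted p under 0.05 by limma. The counts of each list stand beside 12.0% higher and 39.6% lower over all tested genes, or 26.9% and 27.4% after median-of-ratios scaling, and with so few genes nothing particular to a list is read from them. Of 12 partners in nucleotide excision repair 3 rose and 3 fell (median log2 fold change -0.05), or 5 and 2 after median-of-ratios scaling (median 0.27). CDK7, the kinase of TFIIH, fell from 46.4, 45.4 and 37.1 to 22.8, 23.1 and 22.6 (-0.89, SE 0.13). UVSSA, which recruits TFIIH to stalled polymerases, fell from 2.82, 2.38 and 2.02 to 0.649, 0.935 and 0.483 (-1.30, SE 0.20), and the TFIIH gene GTF2H2, which has near-identical copies, fell by 0.49 on the log2 scale but was not called after median-of-ratios scaling.

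Of 10 tested partners in base excision repair 2 rose and 2 fell (median 0.27), or 6 and 0 after median-of-ratios scaling (median 0.57), and APLF was under the filter. APEX2, the second abasic endonuclease gene, rose from 13.4, 14.8 and 13.4 to 21.3, 21.8 and 18.8 (0.55, SE 0.13), and ADPRHL2, which removes ADP-ribose from serine, rose as well (0.64, SE 0.20). HMGB1, a chromatin protein that also binds cisplatin adducts, fell (-0.60, SE 0.18), though it was not called after median-of-ratios scaling.

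Of 19 genes for excision and resynthesis that the routes share with replication 2 rose and 9 fell (median -0.26), or 8 higher and 4 lower after median-of-ratios scaling. POLD3, a subunit of DNA polymerase delta, fell from 46.1, 45.9 and 48.0 to 21.9, 26.8 and 20.7 (-1.0, SE 0.14), and POLD2, another subunit of the same polymerase, rose from 62.6, 66.6 and 54.4 to 121.5, 117.8 and 110.0 (0.93, SE 0.13). POLE and POLE2 of DNA polymerase epsilon fell (-0.90 and -0.74), POLE2 on the deposited scale only. Subunits of polymerase delta thus moved in opposite directions.

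Promoters are shown for the 5 repair genes that kept their call in all 18 other settings, 3 that rose and 2 that fell. They run from 250 bases before to 50 bases after the annotated start (RefSeq, GRCh38.p14). That start can differ from the one in the deposited coordinates. The windows of NEIL1 and DDB1 lie wholly inside the deposited gene spans, 75346955 to 75357114 for NEIL1 and 61299451 to 61342596 for DDB1. In all, 6 plain words were searched on both strands, and capitals mark any match. The GC box was read as GGGCGG and the CCAAT box as CCAAT. The ETS core was read as CCGGAA and the E box, which is its own reverse complement, as CACGTG. The CRE core was read as TGACG and the TATA box as TATAAA. Adjoining or overlapping matches run together.
DDB1, chr11:61333056-61333355, minus strand: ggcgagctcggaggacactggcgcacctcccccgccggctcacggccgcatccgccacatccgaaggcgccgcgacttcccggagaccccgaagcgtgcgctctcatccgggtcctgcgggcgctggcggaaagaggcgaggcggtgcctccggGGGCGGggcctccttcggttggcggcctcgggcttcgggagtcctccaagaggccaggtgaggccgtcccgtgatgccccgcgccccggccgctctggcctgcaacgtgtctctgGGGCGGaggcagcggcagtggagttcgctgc
RAD23B, chr9:107283029-107283328, plus strand: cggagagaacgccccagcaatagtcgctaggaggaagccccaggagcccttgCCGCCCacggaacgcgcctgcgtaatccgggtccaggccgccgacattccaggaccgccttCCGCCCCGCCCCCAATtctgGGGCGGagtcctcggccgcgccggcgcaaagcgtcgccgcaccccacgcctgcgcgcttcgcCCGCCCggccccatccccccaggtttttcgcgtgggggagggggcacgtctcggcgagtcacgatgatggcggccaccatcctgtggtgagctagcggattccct
PARP1, chr1:226408044-226408343, minus strand: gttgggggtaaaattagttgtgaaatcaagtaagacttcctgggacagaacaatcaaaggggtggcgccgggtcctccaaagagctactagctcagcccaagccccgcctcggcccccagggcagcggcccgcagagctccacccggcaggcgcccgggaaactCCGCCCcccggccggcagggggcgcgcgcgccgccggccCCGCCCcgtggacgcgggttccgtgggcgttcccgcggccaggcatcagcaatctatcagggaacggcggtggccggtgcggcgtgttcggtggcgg
NEIL1, chr15:75347585-75347884, plus strand: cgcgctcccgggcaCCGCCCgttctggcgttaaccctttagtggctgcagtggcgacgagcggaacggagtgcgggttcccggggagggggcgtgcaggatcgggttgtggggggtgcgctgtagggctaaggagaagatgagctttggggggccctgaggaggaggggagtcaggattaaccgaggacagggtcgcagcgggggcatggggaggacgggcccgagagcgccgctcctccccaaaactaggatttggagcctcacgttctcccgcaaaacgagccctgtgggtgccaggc
NEIL3, chr4:177309624-177309923, plus strand: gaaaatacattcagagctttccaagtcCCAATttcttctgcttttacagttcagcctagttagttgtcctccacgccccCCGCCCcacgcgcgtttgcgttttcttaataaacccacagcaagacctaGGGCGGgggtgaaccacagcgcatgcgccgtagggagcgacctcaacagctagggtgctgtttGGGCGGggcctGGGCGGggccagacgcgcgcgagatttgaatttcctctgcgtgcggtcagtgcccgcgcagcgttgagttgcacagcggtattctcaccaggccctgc

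The GC box was in 27 of the 36 repair gene promoters found in the table, against 71.2% of 9064 promoters of tested protein-coding genes, and the TATA box in none, against 5.37%. The CCAAT box was in 18 of 36 (37.2% of the 9064), in 7 of the 10 genes that fell and 2 of the 6 that rose. The ETS core and the CRE core were each in 10 of 36 (31.4% and 35.4%). The E box was in 7 of 36 (10.6%), with 3 of the 6 genes that rose, GTF2H1, MPG and NTHL1, and none of the 10 that fell. Over all 35116 promoters of this length the shares were 45% for the GC box, 34.6% for the CCAAT box, 17.2% for the ETS core, 7.26% for the E box, 24.6% for the CRE core and 11.5% for the TATA box. A match is a description of letters, and factor binding was not measured.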

How the data were processed

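Gene expression in 6 samples was deposited as FPKM, 1 value per gene and sample. FastQC, HISAT2 and hg38 are named by the submitters' processing notes. The sources used here do not give the tool that made FPKM, its strand setting, the annotation release or read counts. The 6 single-sample tables were identical to the series table.

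Groups came from the titles. The 14439 genes whose mean reached 1 FPKM were tested with limma 3.58.1 in R 4.3.3 (trend and robust moderation) on log2(FPKM + 0.5), two-sided, without covariates, with Benjamini-Hochberg adjustment over all tested genes. The step was tested on simulated data. FPKM gives no counting error, so no intervals are given. In all 18 other settings were tried, of scaling, pseudocount, filter, moderation, length and GC correction, replicate block and left-out samples. Of 58174 genes 57836 matched GENCODE 29, which gave exons and 3' UTRs, and 56007 had identical coordinates.

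The repair genes and lists were chosen with earlier results of these data known. By rule, values per sample are given for called repair genes whose groups do not overlap and for those with a mean of at least 10 FPKM. They are also given for ERCC6, XPA, GTF2H5, NEIL2, MSH3, PMS2 and MLH3, chosen after their values were seen; up to 4 partner genes per list are named, and some of these are not reported here. Pairs and the readthrough sum were chosen after values were seen.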

Additional observations from a re-analysis of the deposited data

How the results depend on the processing

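The counts of repair genes depend on the scale. Shares of all tested genes called are given above for the deposited scale, median-of-ratios scaling and quantile normalization only. For the other settings no such shares are given, so nothing particular to repair genes is read from their counts. Against 6 higher and 10 lower (nucleotide excision 3 and 4, base excision 3 and 4, mismatch 0 and 2), median-of-ratios scaling gave 12 and 4 (5 and 0, 5 and 2, 2 and 2). Quantile normalization gave 10 and 6 (4 and 2, 4 and 3, 2 and 1), and length and GC correction 12 and 5 (6 and 1, 5 and 4, 1 and 0). Without mitochondrial genes in the total, 1 nucleotide excision gene was lower, and with no filter 1 base excision gene was higher. Leaving out 1 sample gave 3 to 7 higher and 7 to 11 lower, with 1 to 4 lower in nucleotide excision and 1 to 4 higher in base excision. The lowest counts there were without control sample 3 (3 higher; 1 lower in nucleotide excision and 1 higher in base excision). Without mimic sample 3, or sample 3 of both groups, 1 nucleotide excision gene was lower. Without control sample 1 or 2 it was 2.

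Genes that share under 10% of exon bases with any other gene, a choice made after seeing the data, gave 4 higher and 4 lower of 25 (lower in nucleotide excision 1, base excision 2, mismatch 1; higher in base excision 1). The shares over all tested genes were 12.0% higher and 39.6% lower. ERCC4 turned to 0.11 after quantile normalization, after length and GC correction and after that with the replicate block. The cause was not tested.

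Same-numbered samples correlated at 0.177, -0.0467 and 0.223 in their deviations from group means. Samples 1 and 3 of the controls correlated best with the mimic sample of the same number, and sample 2 with mimic sample 1 (0.126). With 3 samples a group, these values cannot tell whether the numbers pair the samples. With the replicate block 6 repair genes were higher and 12 lower, and 12 and 4 with the block and length and GC correction (nucleotide excision 6 and 1, base excision 5 and 3, mismatch 1 and 0). In 607 of 697 gene and alternative pairs the side of the threshold and direction stayed the same. Read depth per gene is unknown.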
